A study of Mus musculus with 2 samples.

Results

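Neurons that carried RNA of a GABA-synthesising enzyme together with RNA of the Dlx gene cluster were described in 2 single-cell libraries of mouse embryonic tissue. A cell barcode was taken as a Gad/Dlx neuron when it held at least 1 UMI (a counted RNA molecule) of Gad1 or Gad2, at least 1 UMI of Dlx1, Dlx2, Dlx5, Dlx6 or Dlx6os1, and UMIs of at least 2 of the 9 neuronal genes Tubb3, Dcx, Stmn2, Elavl3, Elavl4, Map2, Gap43, Mapt and Rtn1. Barcodes with any UMI of Pax2, Tfap2b, Slc17a6, Isl2 or Pdgfra were left out. This rule took 330 of 19056 barcodes in the NTD library and 63 of 18572 in the control library, 393 of 37628 in all. The members were chosen by the measured UMI counts of these genes, so the levels of the rule genes are given as description only.

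Gad1 and Gad2 encode the glutamate decarboxylases, which make the inhibitory transmitter GABA. The Dlx genes encode homeodomain transcription factors that lie in neighbouring pairs, Dlx1 with Dlx2 and Dlx5 with Dlx6. They are known from the ganglionic eminences of the ventral telencephalon, the prethalamus and the hypothalamus, where they act in the making and migration of GABAergic neurons. Dlx6os1, also called Evf2, is a long noncoding RNA from the Dlx5/Dlx6 locus. GABAergic neurons of the hindbrain and spinal cord are commonly marked by Pax2, and those of the midbrain in part by Tfap2b.

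The NTD group was embryos with neural tube defects from dams on a low-folate diet that received 1.5 mg/kg of methotrexate (MTX), a folate antagonist, by intraperitoneal injection at gestational day 7.5. Those embryos were delayed and small to varying degrees, with mainly hindbrain malformation and spina bifida. The control group was embryos with closed neural tubes, and its treatment label is normal saline. Closure was examined from embryonic day 9.5 to 10.5. The sources used here do not give the mouse strain, the control diet, or how many embryos, of which sex and stage, went into a library. Each group had 1 library, so diet, drug, developmental delay, dissection and library cannot be told apart, no difference has a replicate check and no test across samples exists.

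The NTD library held 55524355 UMIs (median 2456 per barcode) and the control library 50741121 (median 2234). Gad/Dlx neurons held 1084188 of the NTD UMIs (median 2756 per barcode) and 166540 of the control UMIs (median 2457). The same barcode sequence occurred in both libraries for 105 barcodes, and no Gad/Dlx neuron was among them in both. A doublet caller marked 54 of the 330 NTD and 13 of the 63 control Gad/Dlx neurons. Hox RNA, which marks hindbrain and more caudal tissue, was found in 13.8% of all NTD barcodes and in 72.8% of all control barcodes, and whether this comes from dissection or from the embryos was not tested. Markers of liver or yolk sac also differed. Within the Gad/Dlx neurons all 8 summed to 44.3 CPM (UMIs relative to all UMIs of the set, on the usual scale) in the NTD library, with 1 of the 8 at 0, and to 360 CPM in the control library, with 3 at 0. Xist, the RNA of the inactive X chromosome, had 817 CPM in NTD and 30.02 CPM in control Gad/Dlx neurons, and Eif2s3y, a gene of the Y chromosome, had 48.9 and 186 CPM. These genes were picked with their values known, and the part of embryo sex in the results below was not tested.

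Dlx6os1 was the Dlx gene seen in the most Gad/Dlx neurons of both libraries. It was present in 245 of 330 NTD and 54 of 63 control barcodes, and it was the only gene of the 5 in 126 NTD and 23 control barcodes. Dlx1 was present in 75 NTD and 20 control barcodes, Dlx2 in 66 and 8, and Dlx6 in 60 and 19. Dlx5 was present in 52 NTD barcodes but in only 2 control barcodes. Both arms of the family, Dlx1 or Dlx2 together with Dlx5 or Dlx6, were seen in 32 NTD and 7 control barcodes. Gad2 was present in 286 NTD and 56 control barcodes, Gad1 in 153 and 37, and both enzymes together in 109 and 30. These are counts of barcodes at a shallow depth and do not rank the genes by level.

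Dlx6os1 is annotated in GENCODE M21 (GRCm38) as an antisense gene on the minus strand of chromosome 6, from 6820189 to 6871592, and Dlx6 lies inside that span on the plus strand, from 6863334 to 6868568. The sources used here do not say whether the authors' counting used the strand, so reads of Dlx6 and Dlx6os1 may be partly exchanged. The same holds for Dlx1 and its antisense gene Dlx1as on chromosome 2. DLX proteins bind AT-rich sites with a TAATTA or similar core, so the 250 bases before the annotated starts were searched for TAATTA, which reads the same on both strands. The sequences of the 2 Dlx6os1 starts are shown because this RNA carries most of the Dlx signal of the rule, and that of Adarb2 because it was a leading gene of these neurons outside the rule. They are from RefSeq, build GRCm38.p6, read 5′ to 3′ on the gene's strand, with TAATTA in capitals.
Dlx6os1, chr6:6869534-6869783, minus strand: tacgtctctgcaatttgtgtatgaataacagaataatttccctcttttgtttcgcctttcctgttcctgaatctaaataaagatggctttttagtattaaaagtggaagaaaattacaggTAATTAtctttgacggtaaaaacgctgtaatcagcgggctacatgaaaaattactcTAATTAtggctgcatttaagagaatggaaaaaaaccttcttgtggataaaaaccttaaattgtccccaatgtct
Dlx6os1, chr6:6861684-6861933, minus strand: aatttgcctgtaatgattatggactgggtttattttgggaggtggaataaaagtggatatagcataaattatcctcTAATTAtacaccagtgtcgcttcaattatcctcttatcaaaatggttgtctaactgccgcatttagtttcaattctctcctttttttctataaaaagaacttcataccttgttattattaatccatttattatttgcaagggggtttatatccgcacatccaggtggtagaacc
Adarb2, chr13:8202616-8202865, plus strand: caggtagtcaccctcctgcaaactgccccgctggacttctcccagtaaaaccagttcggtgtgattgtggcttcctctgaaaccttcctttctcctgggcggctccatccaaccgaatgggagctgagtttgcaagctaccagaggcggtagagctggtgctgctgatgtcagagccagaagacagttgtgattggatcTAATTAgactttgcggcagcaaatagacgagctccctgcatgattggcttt

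The upstream start of Dlx6os1 had 2 matches, which began 130 and 74 bases before the start, and the downstream one had 1, at 174 bases. The Adarb2 match began 51 bases before the start. Of the 31 genes searched (Gad1, Gad2, the 5 Dlx genes, the 20 genes highest over other neurons and those most alike to Dlx in detection), 20 were in the RefSeq table and 3 had a match, Dlx6os1, Adarb2 and Gpm6a. Over all genes of the table the share with a match was 5.65%. A match is a description of these letters and not of binding.

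The rule also admits barcodes that hold little of the enzyme or Dlx RNA. In the NTD library 66 of 330 Gad/Dlx neurons had exactly 1 Gad UMI and 1 Dlx UMI, against 3 of 63 in the control library. At least 2 UMIs of each were present in 140 NTD (42.4%) and 36 control (57.1%) barcodes. Just outside the rule stood 121 NTD and 42 control barcodes that met it but for a UMI of an excluded gene. A further 494 NTD and 141 control neuron barcodes had Gad but no Dlx RNA, and 1266 and 286 had Dlx but no Gad RNA.

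Endothelial barcodes, which should lack these genes, show how often free RNA or mixed droplets meet the rule. In the NTD library 6 of 360 endothelial barcodes (1.67%, 0.614 to 3.59%), with a median of 3194.5 UMIs, met it. That is near the 1.73% of all NTD barcodes that did. In the control library 0 of 637 met it, which allows a share of up to 0.471% by the limit of 3 counts (exact upper end 0.577%), with a median of 2897 UMIs, and the share of all control barcodes was 0.339%. With at least 2 Gad and 2 Dlx UMIs the endothelial shares were 2 of 360 (0.556%) in the NTD library and 0 of 637 in the control library. No endothelial barcode that met the rule lay in the cluster described next. Clusters were drawn from variable genes of the whole profile, so this gives no background rate for that cluster. With all UMIs the rule alone was thus at the level of background in NTD endothelial barcodes. Those with a Gad UMI were deep, with a median of 6274 UMIs against 2756 in NTD Gad/Dlx neurons. After thinning to 1500 UMIs, 0 of 172 NTD endothelial barcodes met the rule (exact upper end 2.12%), against 197 of 19056 NTD barcodes (1.03%). That upper end lies above 1.03%, so thinning does not settle the background. Results are given below also for the narrower sets.

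When all barcodes were clustered, 244 of 330 NTD (73.9%) and 52 of 63 control (82.5%) Gad/Dlx neurons fell in a single cluster of 874 NTD and 381 control barcodes. Its leading genes were Nrxn3, Adarb2, Gad2, Dlx6os1 and Gad1, followed by Cacna2d3, Gm14204, Slc6a5, Nxph1 and Nol4. Slc6a5 encodes the glycine transporter of hindbrain and spinal inhibitory neurons, and it had 1 UMI in all NTD and 0 in all control Gad/Dlx neurons. Gad/Dlx neurons were 27.9% of its NTD and 13.7% of its control barcodes.

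In the NTD library Nrxn3 and Lhx6, which the rule did not use, had higher levels where rule RNA was higher. Nrxn3, a presynaptic adhesion gene, had 2728 CPM in NTD barcodes with 1 Gad and 1 Dlx UMI, 6705 CPM in those between and 10060 CPM in those with at least 2 of each, against 497 CPM in other NTD neuron barcodes. In the control library it had 5995 CPM in the 24 barcodes between and 12760 CPM in the 36 with at least 2 of each, against 582 CPM in other neurons. Lhx6, a transcription factor of medial eminence interneurons, had 4.80, 52.7 and 103 CPM along the same 3 steps in the NTD library, against 6.85 CPM in other neurons. Adarb2 did not follow the steps in the NTD library, with 888, 1457 and 853 CPM, and neither did Isl1, with 57.6, 143 and 111 CPM. In the control library Adarb2 had 1514 CPM between and 2397 CPM with at least 2 UMIs of each. For Lhx6 no order could be read there, with 108 CPM from 7 UMIs (43.5 to 223) and 61.5 CPM from 6 UMIs (22.6 to 134). The 3 control barcodes with 1 UMI of each were too few to place.

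The first comparison asked how common these neurons were in each library. They made up 1.73% of NTD barcodes (1.55 to 1.93%) and 0.339% of control barcodes (0.261 to 0.434%), a difference of 1.39 percentage points (1.19 to 1.60). Among neuron barcodes, those with at least 2 of the 9 neuronal genes, they were 2.18% of 15109 in the NTD library and 0.626% of 10064 in the control library, a difference of 1.56 points (1.28 to 1.84). This neuron class is loose, since it takes in most barcodes of both libraries. With at least 2 Gad and 2 Dlx UMIs the shares of all barcodes were 0.735% in the NTD library and 0.194% in the control library, and with the leading cluster required they were 1.28% and 0.280%. All intervals are 95% intervals and cover counting error only.

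Leaving out barcodes with a Hox UMI left 296 of 330 NTD and 30 of 63 control Gad/Dlx neurons and so changed both sides of each share. Among all barcodes the difference was then 1.21 points, against 1.39 with all of them. Among neuron barcodes with no Hox UMI the shares were 2.28% of 12955 in the NTD library and 1.25% of 2392 in the control library, a difference of 1.03 points (0.447 to 1.49). After each barcode was thinned to 1500 UMIs, which left out 0 NTD and 3919 control barcodes, these shares were 1.83% and 1.79%. The difference of 0.0371 points (-0.695 to 0.610) was not detectable at this depth. Thinning also removes Hox UMIs, so the class with no Hox UMI is then a different set. Of the 44 control Gad/Dlx neurons left, 35 had no Hox UMI, against 30 of 63 before thinning. Among neuron barcodes with a Gad UMI and no Hox UMI, 296 of 1029 in the NTD library (28.8%) and 30 of 99 in the control library (30.3%) were Gad/Dlx neurons, a difference of -1.54 points (-11.6 to 7.12). Hox RNA was also found in 61 of 360 NTD and 443 of 637 control endothelial barcodes, and such barcodes were deeper than endothelial barcodes as a whole, with medians of 4269 against 3194.5 UMIs in the NTD library and 3162 against 2897 in the control library, so a missing Hox UMI also goes with depth. Neither an absence of change nor a change in the number of such neurons in the embryo can be read from these shares.

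**Figure D1:**
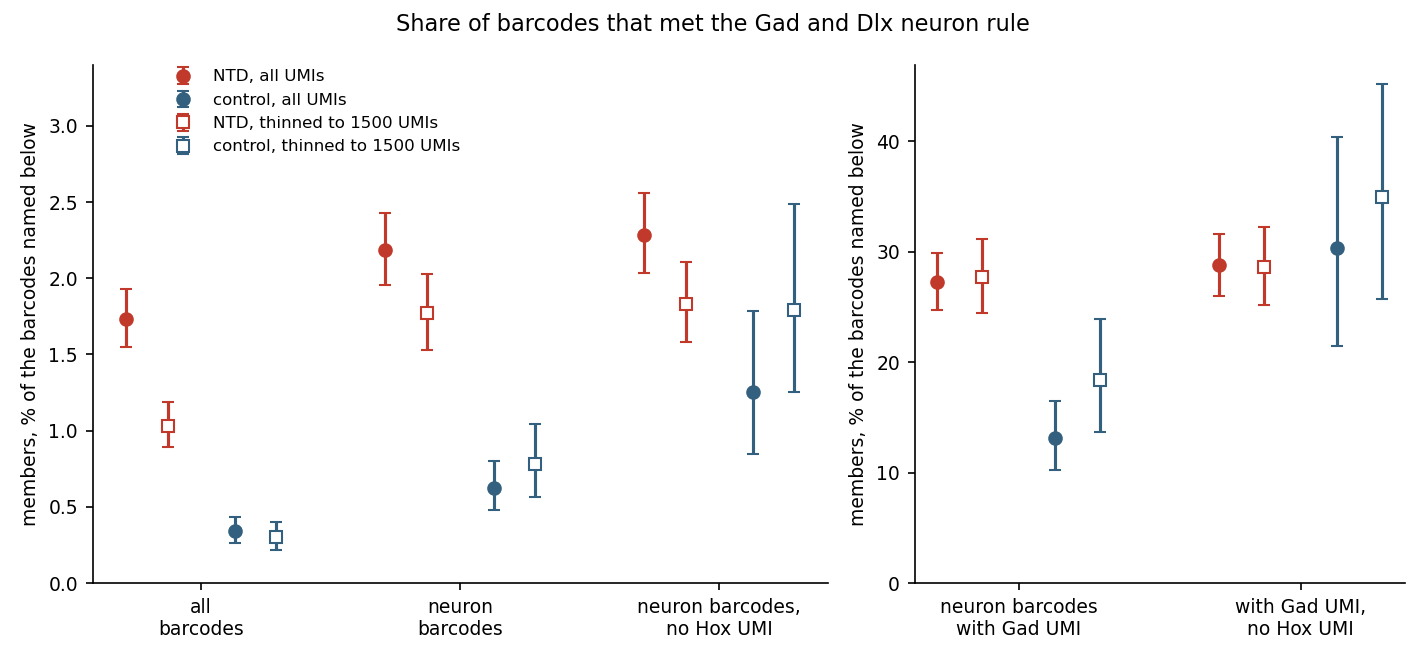
Share of barcodes that met the rule, in percent of the barcodes named below each pair, for the NTD library (left of each pair) and the control library, with all UMIs (filled circles) and after thinning to 1500 UMIs (open squares); bars are 95% Clopper-Pearson intervals. NTD lies above control over all barcodes and all neuron barcodes, at 1.73% and 0.339% over all barcodes, while the intervals overlap for Gad neuron barcodes with no Hox UMI.

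The second comparison set the Gad/Dlx neurons against all other neuron barcodes of the same library. A gene was measured when it had at least 50 UMIs in the Gad/Dlx neurons of both libraries together, rule genes left out. Of 5302 measured genes, 142 (2.68%) were at least 2-fold higher in both libraries and 23 (0.434%) at least 2-fold lower. Since other genes of the same barcodes chose the members, these values describe the set and test nothing.

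Among genes that reached 100 CPM in the Gad/Dlx neurons of both libraries, Nrxn3 led this order. It had 7417 CPM in NTD Gad/Dlx neurons and 497 CPM in other NTD neurons, a log2 ratio of 3.90, and 10010 and 582 CPM in the control library, a log2 ratio of 4.10. It was present in 299 of 330 NTD and 60 of 63 control Gad/Dlx neurons. Grik3, a kainate receptor subunit, had log2 ratios of 3.43 in the NTD and 3.16 in the control library. Dlx1as, the antisense RNA of Dlx1, had 2.88 and 3.65. Adarb2, a double-stranded RNA binding protein of the adenosine deaminase family that marks caudal-eminence interneurons in the adult cortex, had 2.64 and 3.32.

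The remaining genes of the first 20 were mostly neuronal. The synaptic and excitability genes were Syt1, the calcium sensor of vesicle release (1.945 in the NTD and 1.99 in the control library), Anks1b (2.35 and 3.20), Unc79, part of the sodium leak channel (1.76 and 2.31), Lrrc7 (1.88 and 1.63) and Cacna2d3, a calcium channel subunit (2.32 and 1.69). Sntg1 had log2 ratios of 2.50 and 4.04, and Unc5d, a netrin receptor, 1.93 and 3.27. RNA-binding and regulatory genes were Celf4 (1.83 and 2.29), St18, a zinc-finger factor also known as Myt3 (1.85 and 2.95), and Nol4 (2.53 and 3.43). Noncoding genes among them were Sox2ot (2.29 and 3.01) and Sfta3-ps, which lies near Nkx2-1 (2.47 and 4.52). Ccser1, Gpm6a, Dclk2 and Tafa2 completed the 20, with log2 ratios of 1.62 to 2.53.

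Against the most similar neurons, those with Gad and Pax2 or Tfap2b RNA and no Dlx RNA (185 NTD and 184 control barcodes), fewer of these genes stood apart. Nrxn3 was 0.63 higher on the log2 scale in the NTD library and 0.72 in the control library, and Syt1 0.90 and 1.00. Sfta3-ps was 4.38 and 4.58 higher, Dlx1as 3.28 and 3.86, and Sox2ot 2.53 and 2.85. Cacna2d3 was lower in the Gad/Dlx neurons, by -0.47 in the NTD and -1.25 in the control library. Adarb2 was lower in the NTD library (-0.73, upper end of its interval below 0) and higher in the control library (0.54), so its direction differed between the libraries. Gad1 had 208 CPM in NTD and 390 CPM in control Gad/Dlx neurons, with log2 ratios over the Pax2 or Tfap2b neurons of -0.13 and 0.99.

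**Figure D2:**
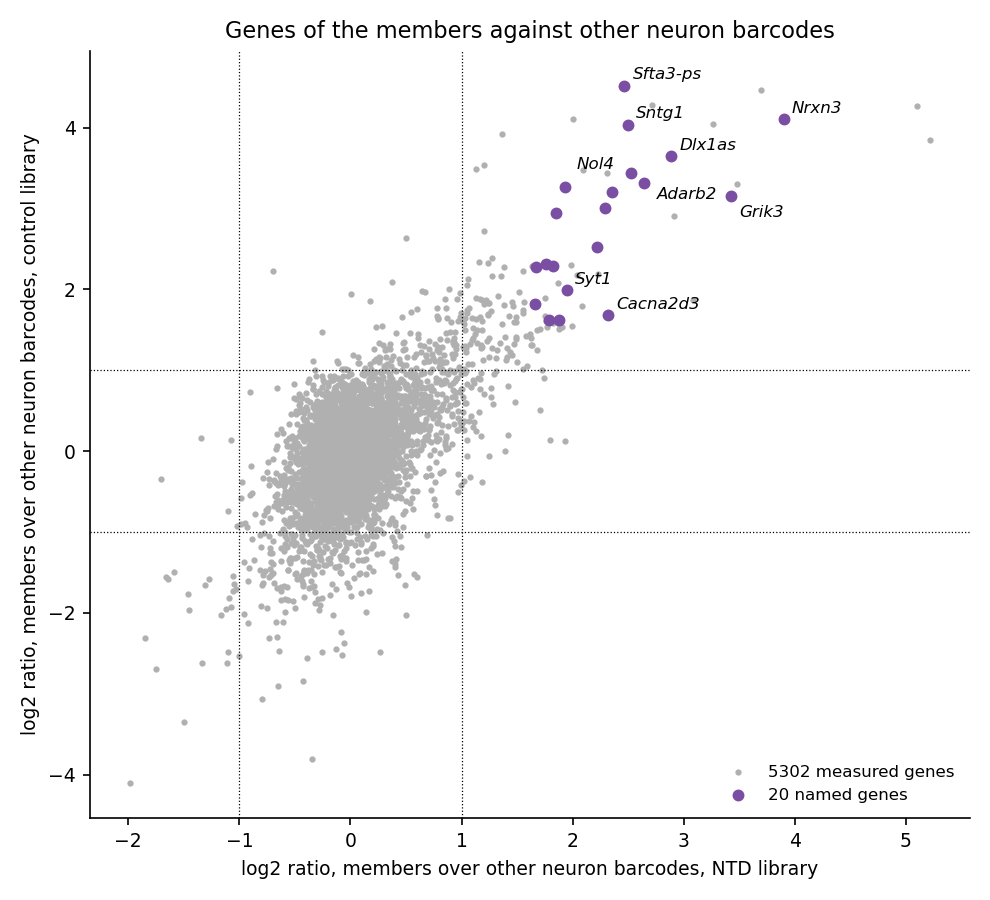
Each point is 1 of 5302 measured genes, with the log2 ratio of Gad/Dlx neurons over other neuron barcodes in the NTD library on the horizontal axis and in the control library on the vertical axis. The 20 genes named by rank (purple) lie above the 2-fold lines (dotted) in both libraries, with Nrxn3 at 3.90 and 4.10.

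The genes whose presence most resembled that of the Dlx genes were found by the ratio of 2 shares, the neuron barcodes with a Dlx UMI that held the gene over those without a Dlx UMI that held it, after thinning to 1500 UMIs. There were 1046 and 10093 such barcodes in the NTD library and 199 and 5449 in the control library. Dlx1as was held by 10.2% and 1.82% in the NTD library and by 10.6% and 1.73% in the control library, ratios of 5.61 and 6.12. Lhx6 had ratios of 4.05 in the NTD and 6.32 in the control library, and Sp9, a zinc-finger factor of striatal neurons, 4.23 and 4.13. Myo3a, an unconventional myosin, had the highest ratios, 7.24 and 20.5, but was held by 0.860% and 1.51% of Dlx neuron barcodes and rests on 23 NTD and 5 control UMIs in Gad/Dlx neurons. Its span on chromosome 2 (22227503 to 22618252) ends close to the start of Gad2 at 22622205.

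Regional genes were used to check whether these were forebrain neurons, and they were mixed. Nkx2-1, the master factor of the medial eminence and the ventral hypothalamus, was present in 50 NTD (15.2%) and 13 control (20.6%) Gad/Dlx neurons, against 5.28% of NTD and 0.942% of control endothelial barcodes. Lhx8, of cholinergic and other medial eminence neurons, was present in 53 (16.1%) and 13 (20.6%), against 5.28% and 2.04%. Lhx6 was present in 43 (13.03%) and 10 (15.9%), against 6.67% and 7.69%. At least 1 of these 3 factors was found in 98 NTD and 26 control Gad/Dlx neurons. At these depths a missing UMI does not show that a barcode lacked the RNA. Lhx6 and Lhx8 occurred together in 19 NTD and 4 control barcodes, and Lhx8 with Nkx2-1 in 18 and 4.

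Another factor seen was Isl1, of striatal and hypothalamic as well as motor neurons. It was present in 78 NTD (23.6%) and 24 control (38.1%) Gad/Dlx neurons, against 8.89% and 9.26% of endothelial barcodes. In 64 of those 78 NTD and 17 of those 24 control barcodes Nkx2-1, Lhx6 and Lhx8 were not seen. Six3, of the anterior forebrain and striatum, was present in 57 (17.3%) and 11 (17.5%), and Sp9 in 40 (12.1%) and 10 (15.9%). Pax6 was present in 74 NTD (22.4%) and 11 control (17.5%) barcodes. The Hox genes summed to 39.7 CPM in NTD Gad/Dlx neurons and 72.9 CPM in other NTD neurons, and to 348 and 1080 CPM in the control library. A Hox UMI was present in 34 NTD and 33 control Gad/Dlx neurons. Summed over a list, midbrain and hindbrain GABA genes had 285 CPM in NTD Gad/Dlx neurons and 251 CPM in other NTD neurons. In the control library they had 156 and 312 CPM. With 1 Gad and 1 Dlx UMI the NTD sum was 394 CPM, and with at least 2 of each 151 CPM. General telencephalon genes had 158 and 208 CPM in the NTD library, and hypothalamus genes 89.5 and 146 CPM. Medial eminence genes stood above other neurons, with 858 and 485 CPM in the NTD and 1177 and 536 CPM in the control library. Lateral eminence and striatum genes, the list that holds Isl1 and Six3, stood below other neurons. They had 2203 and 2589 CPM in the NTD and 2432 and 3860 CPM in the control library. Caudal eminence genes also stood below, with 1070 and 1172 CPM in the NTD and 1165 and 1268 CPM in the control library. These values do not divide telencephalon from hypothalamus or from midbrain and hindbrain, and 33 of 63 control members carried Hox RNA. The neurons are therefore called by their Gad and Dlx RNA here.

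**Figure D3:**
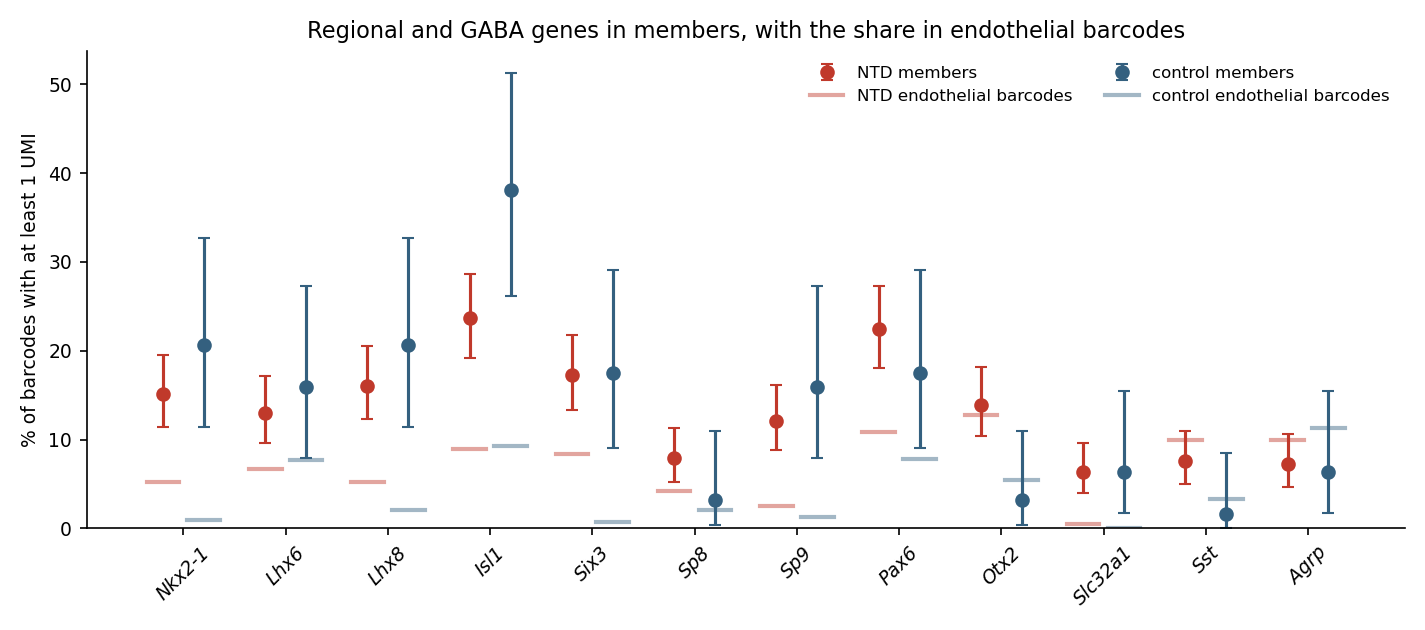
Percent of Gad/Dlx neurons with at least 1 UMI of each gene (points, with 95% Clopper-Pearson bars) in the NTD library (left of each pair, n = 330) and the control library (n = 63), with the percent of endothelial barcodes of the same library as a short bar. Isl1 reaches 23.6% in NTD and 38.1% in control members, while Sst and Agrp lie at or below the endothelial bars.

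Genes that handle GABA after its synthesis were sparse. Slc32a1, the vesicular GABA transporter, was present in 21 NTD and 4 control Gad/Dlx neurons, with 19.4 CPM in NTD and 24.0 CPM in control, against 2.81 and 1.15 CPM in other neurons. Abat, which breaks GABA down, had 48.9 CPM in NTD and 66.1 CPM in control Gad/Dlx neurons, and was at least 2-fold above other neurons in both libraries. The peptide genes Sst and Agrp were at or below their share in endothelial barcodes and were not read as expression. Sst was present in 25 NTD (7.58%) and 1 control (1.59%) Gad/Dlx neurons, against 10.0% and 3.30% of endothelial barcodes.

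The neurons were not uniform. After thinning to 1500 UMIs, the ratio of variance to mean over barcodes (Fano factor, 1 for pure counting) had a median of 1.04 in both libraries over 2705 genes. Nrxn3 had 8.01 in the NTD and 10.7 in the control library, and Dcc, the netrin receptor, 8.31 and 7.15. Sox2ot had 6.94 and 11.3, Adarb2 6.45 and 10.6, Erbb4, the neuregulin receptor of migrating interneurons, 6.68 and 6.14, and Meis2 4.26 and 6.86. Malat1, which is not particular to these neurons, had 6.76 and 8.72. The median covers genes from a mean of 0.1 UMI, while Nrxn3 had means of 11.95 and 15.63 UMIs and Malat1 27.46 and 35.65. The Fano factors were thus not matched for level, and whether they reflect subtypes was not tested. A single NTD barcode held 159 of the 8041 Nrxn3 UMIs and another 224 of the 5224 Dcc UMIs. Erbb4 was present in 197 of 330 NTD and 36 of 63 control barcodes with 456, 1094 and 2011 CPM along the 3 steps of rule RNA in the NTD library, and in the control library 1174 CPM between and 2397 CPM with at least 2 UMIs of each.

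The third comparison asked which genes differed between NTD and control within the Gad/Dlx neurons. Ratios are NTD over control of the summed UMIs, scaled to the total of each set, with 0.5 counts added. Of 5302 measured genes, 640 (12.1%) were at least 1.5-fold higher in NTD and 722 (13.6%) at least 1.5-fold lower. In simulated counts of the same UMI totals, 7.73% of genes with no true difference passed 1.5-fold higher and 7.21% lower by counting error alone. The counting interval of the log2 ratio lay above 0 for 388 genes (7.32%) and below 0 for 428 (8.07%). The median log2 ratio was -0.07. Scaling by the trimmed mean of M values (TMM) moved it to 0.11, and 1040 genes (19.6%) were then higher and 399 (7.53%) lower, 72.3% of calls higher against 47.0%. TMM adds 0.18 to every log2 ratio below, and the list medians of the Dlx program, lateral eminence and striatum, caudal eminence, axon guidance, neuronal maturation and G2/M genes turn positive with it. The control side rests on 63 barcodes.

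Among genes that reached 100 CPM in a library, broadly expressed genes stood at the high end. Uqcc2, an assembly factor of mitochondrial complex III, had 206 UMIs (190.0 CPM) in NTD and 8 UMIs (48.0 CPM) in control Gad/Dlx neurons, and its log2 ratio was 1.90 (0.98 to 3.22). Pfdn2, a subunit of the prefoldin chaperone, had 202 and 9 UMIs, a log2 ratio of 1.71 (0.83 to 2.94). Hist1h4d, a replication-dependent histone gene, had 130 and 4 UMIs (2.16, 0.93 to 4.22). Higd1a, Yeats4, Dnajc2, Nop58, Eloc and G3bp2 had log2 ratios of 1.53 to 2.03, and their control counts were 4 to 8 UMIs. In other neuron barcodes all of these also lay on the NTD side, at 0.18 to 1.29.

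Cadm2, a synaptic adhesion gene, was the exception among the 10 highest. It had 142 UMIs in 68 NTD barcodes and 7 UMIs in 4 control barcodes, a log2 ratio of 1.55 (0.56 to 2.98), while in other neuron barcodes it was lower in NTD, with 92.9 CPM in NTD and 183 CPM in control (-0.98). When barcodes with an excluded gene were kept, its ratio in Gad/Dlx neurons turned to -0.32.

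Among the 10 lowest genes were the cadherins Cdh20 and Cdh7 and the protocadherin Pcdh19, and some rested on few barcodes. Cdh20, a cadherin, had 29 UMIs in NTD and 26 in control, a log2 ratio of -2.55, but 22 of the 26 control UMIs came from 1 barcode, and without it the ratio was -0.03 (-1.39 to 2.09). Ebf2, a helix-loop-helix factor of differentiating neurons, had 104 UMIs (95.9 CPM) in NTD and 67 UMIs (402 CPM) in control, and its log2 ratio was -2.07 (-2.53 to -1.60). Without its richest control barcode the ratio was -1.53 (-2.04 to -0.98), and among barcodes with no Hox UMI it turned to 0.40. Cep128, a centriole gene, had 38 and 22 UMIs (-1.93, -2.71 to -1.09), spread over 33 NTD and 15 control barcodes, and Atg7, of autophagy, had 39 and 19 UMIs (-1.68, -2.49 to -0.79). Apoe had 51 UMIs in 45 NTD barcodes and 23 UMIs in 21 control barcodes (-1.57, -2.29 to -0.78), with no more than 3 in any barcode. Cdh7, Pcdh19, Camk2a, Prkca and Zfp141 had log2 ratios of -1.58 to -1.50.

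**Figure D4:**
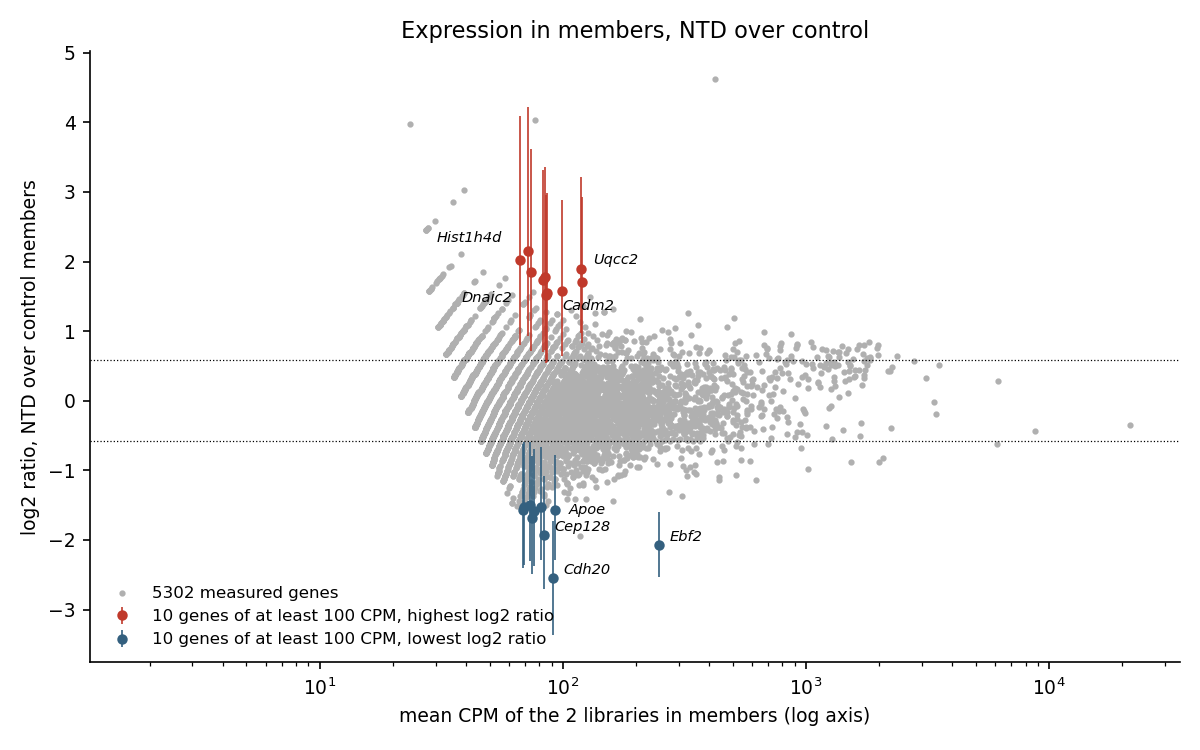
Log2 ratio of NTD over control in Gad/Dlx neurons against the mean CPM of the libraries (log axis) for 5302 measured genes, with the 10 highest (red) and 10 lowest (blue) genes that reached 100 CPM in a library and their 95% counting intervals; dotted lines mark 1.5-fold. Most genes lie between the lines, and the spread is wider at low CPM.

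The genes that set these neurons apart leaned to the control side. Of the 20 genes highest over other neurons, 10 were at least 1.5-fold lower in NTD Gad/Dlx neurons and 0 higher. Their median log2 ratio was -0.62, and 13.6% of all measured genes were lower. The 20 genes were ranked on the same Gad/Dlx neuron counts that enter these ratios, so this is a description and no test. Nrxn3 had 7417 CPM in NTD and 10010 CPM in control (-0.43, -0.51 to -0.36), Adarb2 1082 and 1994 CPM (-0.88, -1.06 to -0.70), and Sox2ot 1503 and 2648 CPM (-0.82, -0.97 to -0.66). Such intervals count each UMI as independent. They are too narrow for these genes, whose Fano factors over barcodes ran from 6.45 to 11.3. Anks1b had 281 and 601 CPM (-1.10, -1.42 to -0.75). For Unc5d, with 173 and 444 CPM (-1.36), 38 of 74 control UMIs came from 1 barcode, and without it the ratio was -0.37 (-0.88 to 0.20). Cacna2d3 had 419 and 402 CPM (0.05, -0.32 to 0.45), or 0.58 (0.15 to 1.07) without a control barcode that held 22 of its 67 UMIs. When barcodes with an excluded gene were kept, 1 of the 20 genes was lower and the median was -0.22.

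The rule genes chose the members, so their levels are a description and support nothing. Gad2 had 588.5 CPM in NTD and 895 CPM in control, Gad1 208 and 390 CPM, Dlx6os1 788 and 1357 CPM, Dlx1 82.1 and 138 CPM and Dlx6 65.5 and 150 CPM. Dlx2 and Dlx5 stood higher in NTD, Dlx2 at 73.8 and 54.0 CPM and Dlx5 at 50.7 and 12.0 CPM, from 55 NTD and 2 control UMIs. Barcodes with a single Gad and a single Dlx UMI were 66 of 330 in the NTD and 3 of 63 in the control set. With at least 2 UMIs of each required, 7 of the 20 genes were still at least 1.5-fold lower, with a median of -0.40, and in the leading cluster alone 8 were, with a median of -0.50. Their part in the result beyond these values was not tested.

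Few single genes of the regional lists differed in a way that the counts could resolve. Summed over each list, the log2 ratio was 0.843 (0.289 to 1.506) for midbrain and hindbrain GABA genes, from 26 control UMIs. It was 0.386 (0.052 to 0.755) for prethalamus and diencephalon, -0.135 (-0.225 to -0.042) for the Dlx program and -0.459 (-0.68 to -0.227) for the medial eminence. With at least 2 Gad and 2 Dlx UMIs the medial eminence sums were 1222 CPM in NTD and 1157 CPM in control. The summed intervals of the other regional lists included 0. Over all measured genes 12.1% were higher and 13.6% lower. Of 6 measured genes of the medial eminence list 2 were at least 1.5-fold lower and 0 higher (median -0.44). Zic1 had 105 and 26 UMIs (-0.71, -1.32 to -0.01) and Nkx2-1 62 and 14 UMIs (-0.60, -1.41 to 0.40). With excluded genes kept these ratios turned to 0.02 and 0.60. Of 10 genes of the lateral eminence and striatum list 2 were lower and 0 higher (median -0.10, but 0.33 with at least 2 Gad and 2 Dlx UMIs). Isl1 was one, with 113 CPM in NTD and 204 CPM in control (-0.88, -1.42 to -0.27, but -0.35 with excluded genes kept), and Tshz1 the other (-0.62, -1.58 to 0.59). Of 12 genes of the Dlx program list (regulators known alongside or below Dlx) 1 was higher, Pou3f1, with 61 and 3 UMIs (1.43, 0.03 to 3.96), and 0 were lower. Meis2 had 1345 and 1195 CPM (0.17, -0.04 to 0.39) and Meis1 313 and 438 CPM (-0.50, -0.86 to -0.10). Of 4 genes of the prethalamus and diencephalon list 3 were higher, Otx2 with 57 and 2 UMIs (1.82, 0.21 to 5.21), Lhx1 with 53 and 3 UMIs (1.23, -0.19 to 3.76, but -0.54 with excluded genes kept) and Tcf7l2 with 253 and 25 UMIs (0.61, 0.04 to 1.29, but 0.134 with excluded genes kept). The share of NTD Gad/Dlx neurons with Otx2 (13.9%) was close to that of NTD endothelial barcodes (12.8%).

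Of 17 genes of GABA receptors and chloride transport 5 were measured, and 0 were at least 1.5-fold higher and 1 lower, where 12.1% and 13.6% of all measured genes were. Among 18 measured genes of axon guidance 2 were at least 1.5-fold higher and 7 lower (median -0.17). Sema6d had 86.7 CPM in NTD and 234 CPM in control (-1.44, -1.99 to -0.86), the semaphorin receptor Plxna2 215 and 408 CPM (-0.93, -1.32 to -0.51), and Dcc 4818 and 7386 CPM (-0.62, -0.71 to -0.53). Sema6d no longer passed 1.5-fold with excluded genes kept (-0.424), and Dcc did not with excluded genes kept (-0.351), with TMM (-0.434), after thinning (-0.387) or with at least 2 Gad and 2 Dlx UMIs (-0.471). Sema3a was higher, with 110 UMIs in 50 NTD barcodes and 6 UMIs in 5 control barcodes (1.39, 0.33 to 2.97), and turned to -0.52 with excluded genes kept. Among 14 genes of interneuron migration 1 was higher and 4 lower (median -0.28). Pak3, a kinase downstream of Dlx1 and Dlx2, had 242 and 456 CPM (-0.92, -1.29 to -0.53), but -0.309 with at least 2 Gad and 2 Dlx UMIs and -0.125 with excluded genes kept. Nrg3 had 387 and 697 CPM (-0.85), but 41 of its 116 control UMIs came from 1 barcode, and without it the ratio was -0.27 (-0.62 to 0.12). Erbb4 had 1375 and 1957 CPM (-0.51, -0.68 to -0.33). Among 21 genes of neuronal maturation 4 were higher and 3 lower (median -0.13), with 1 interval above 0 and 5 below it. Summed over the list they had 11740 CPM in NTD and 15000 CPM in control (log2 ratio -0.353, -0.415 to -0.291). Rbfox1 was higher, with 149 and 12 UMIs (0.88, 0.08 to 1.92), which turned to -0.371 with excluded genes kept and was 0.116 among barcodes with no Hox UMI.

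The medians of the precursor, ribosomal protein and histone lists lay on the NTD side, in these neurons as in other neuron barcodes. Of 14 genes of neurogenic precursors 6 were at least 1.5-fold higher and 0 lower, with a median of 0.43 (0.50 in other neurons). Sox2 had 114 and 7 UMIs (1.23, 0.23 to 2.67), and Fabp7, a fatty acid binding protein of radial glia, 363 and 180 CPM (0.99, 0.48 to 1.60), but 0.467 among barcodes with no Hox UMI. Of 80 ribosomal protein genes 40 were higher and 0 lower, with a median of 0.59 (0.83 in other neurons). Their summed level was 115900 CPM in NTD and 77490 CPM in control. Of 8 measured replication-dependent histone genes 6 were higher and 0 lower, with a median of 1.34 (1.41 in other neurons). Of 9 mitochondrial genome genes 4 were lower and 0 higher (median -0.52, against -0.53 in other neurons). Of 22 S-phase genes 4 were higher and 0 lower, which is near the 12.1% of all measured genes, and the only interval above 0 was that of Pcna, with 250 and 15 UMIs (1.31, 0.61 to 2.22). Of 27 G2/M genes 4 were higher and 3 lower (median -0.005). Top2a was present in 60.0% of NTD and 54.0% of control Gad/Dlx neurons and in 71.9% and 64.8% of endothelial barcodes, so phase genes were not read as division here.

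**Figure D5:**
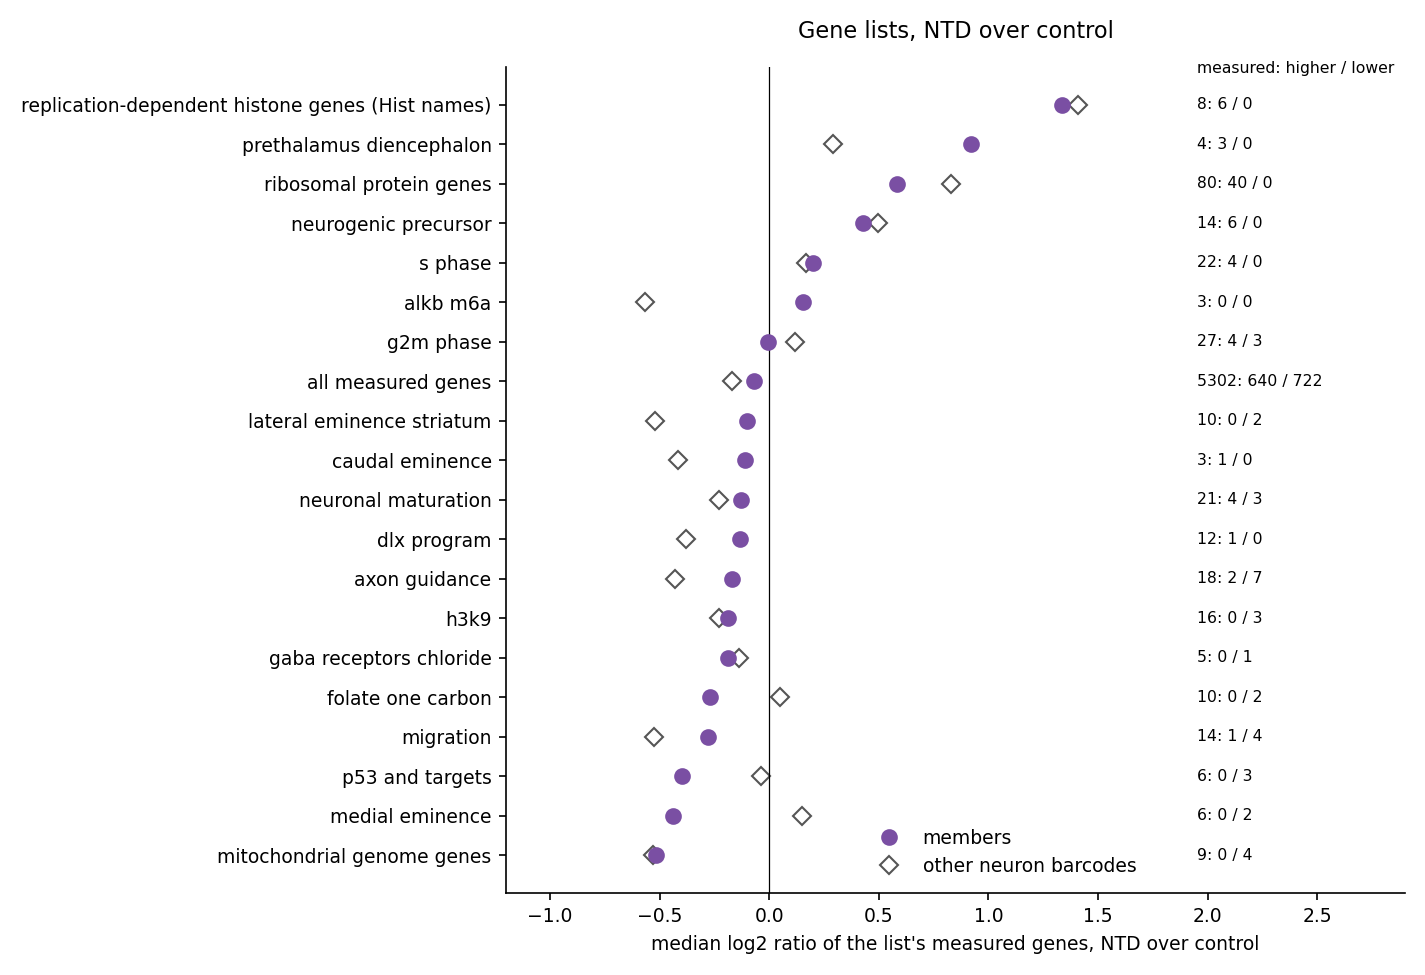
Median log2 ratio of NTD over control for each list with at least 3 measured genes, in Gad/Dlx neurons (filled circles, called members) and in other neuron barcodes (open diamonds); the numbers give the genes measured and those at least 1.5-fold higher and lower in Gad/Dlx neurons. Histone and ribosomal protein genes lie on the NTD side in both sets, at 1.34 and 0.59 in members, and the mitochondrial genome genes on the control side at -0.52.

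The study's interest in N6-methyladenine and H3K9 methylation was met by few UMIs. Alkbh1, a candidate demethylase of DNA N6-methyladenine, had 111 UMIs (102 CPM) in NTD and 16 UMIs (96.1 CPM) in control Gad/Dlx neurons, a log2 ratio of 0.05 (-0.67 to 0.95) that was not detectable at this depth. It was present in 84 NTD and 15 control barcodes. In other neuron barcodes it had 123 CPM in NTD and 188 CPM in control (-0.61). Of 3 measured genes of its list 0 passed 1.5-fold. Suv39h1 and Suv39h2, H3K9 methyltransferases, had 37 and 33 UMIs in NTD and 2 each in control, under the minimum. Of 16 measured H3K9 genes 0 were higher and 3 lower, the methyltransferase Setdb1 with 82 and 23 UMIs (-0.89, -1.55 to -0.13), the demethylase Kdm4c with 87 and 24 UMIs (-0.87, -1.51 to -0.13) and Smchd1 with 154 and 36 UMIs (-0.62, -1.14 to -0.04). That count is near the 13.6% of all measured genes that were lower. With excluded genes kept Setdb1 (-0.563) and Kdm4c (-0.337) no longer passed 1.5-fold, and Smchd1 was -0.439 with TMM and 0.037 in the leading cluster. Of 10 genes of folate and one-carbon metabolism 0 were higher and 2 lower, also near that share. Mat2a, which makes S-adenosylmethionine, had 236 CPM in NTD and 384 CPM in control (-0.71, -1.10 to -0.28, but -0.529 with TMM), and Mthfd2 39 and 12 UMIs (-1.04, -1.97 to 0.07). Of 6 genes of the p53 list 0 were higher and 3 lower, Trp53 itself and its targets Apaf1 and Sesn1, none with an interval off 0.

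Markers of other cell types differed in places, and erythroid genes had a high summed level in both libraries. The mesenchyme list of 8 genes summed to 268 CPM in NTD and 498 CPM in control Gad/Dlx neurons, and none was at 0 in either library. The neural crest and Schwann list of 7 summed to 16.6 and 60.1 CPM, with 1 gene at 0 in NTD and 2 in control, and the macrophage list of 8 to 28.6 and 24.0 CPM, with 1 and 5 at 0. The endothelial list of 8 summed to 93.2 and 84.1 CPM, with 0 and 1 at 0. Erythroid genes summed to 13400 CPM in NTD and 11930 CPM in control, and Hbb-y, the embryonic globin, was present in every Gad/Dlx neuron of both libraries, with 906 of its 7295 NTD UMIs in 1 barcode. Their part in the ratios above was not tested.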

How the data were processed

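Per the labels' protocols, 1 NTD and 1 control library were prepared with the Chromium Single cell 3′ v3 kit. The authors deposited UMI counts, not normalized, for each gene in each barcode; the file headers name Cell Ranger 7.0.1. STAR and mm10 stand in the submitters' processing notes. The sources used here do not give the annotation, the intron and strand settings or the cell calling. No further cell filter was applied.

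UMIs were summed over barcodes of a set, scaled to CPM, and compared as log2 ratios of NTD over control with 0.5 counts added. Ratio intervals are exact conditional binomial, share intervals exact Clopper-Pearson, differences of shares Newcombe, all 95% and for counting error only. With 1 library per group no p-value was computed. Barcodes were clustered with scanpy 1.11.5 and leidenalg 0.10.2 (counts scaled to 10000, 2000 variable genes, 30 components, 15 neighbours, resolution 1.0). Doublets were called with Scrublet per library at an expected 0.8% per 1000 barcodes, and were kept except in an alternative. Endothelial barcodes held at least 3 of 8 markers. TMM factors came from edgeR 4.0.16, used for scaling only. The counting steps were tested on simulated data.

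Genes named by size were the 10 highest and 10 lowest log2 ratios among genes that reached 100 CPM in a library and 50 UMIs in all (without globin, mitochondrial, sex-linked marker and predicted genes), up to 3 members of each list, the 20 highest over other neurons, the 10 highest Fano factors and the 5 most like Dlx in detection. List members and cohort facts named beyond this were chosen after their values were seen. The members and lists were chosen with earlier results of these data known. Gene positions are from GENCODE M21. A few genes, and a narrower choice of members that needs one of them, are not reported here.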

Additional observations from a re-analysis of the deposited data

Results flagged for a closer look

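In all, 4 named genes went past 1.5-fold one way in Gad/Dlx neurons and the other way in other neuron barcodes, with both counting intervals off 0; the difference itself was not tested. Cadm2 had a log2 ratio of NTD over control of 1.545 in Gad/Dlx neurons and -0.98 (-1.04 to -0.92) in other neuron barcodes. Sema3a, a guidance cue, had 1.385 and -1.02 (-1.07 to -0.97), and Rbfox1, a splicing regulator of neurons, 0.877 and -1.26 (-1.32 to -1.21). Sfta3-ps went the other way, at -0.768 in Gad/Dlx neurons and 1.29 (1.16 to 1.42) in other neuron barcodes. In neurons with Gad and Pax2 or Tfap2b RNA the log2 ratios were -0.19 for Cadm2, -1.11 for Sema3a, -0.39 for Rbfox1 and -0.57 for Sfta3-ps. The control counts of Cadm2, Sema3a and Rbfox1 in Gad/Dlx neurons were 7, 6 and 12 UMIs. When barcodes with an excluded gene were kept, the direction in Gad/Dlx neurons turned for these genes, to -0.319 for Cadm2, -0.518 for Sema3a, -0.371 for Rbfox1 and 0.193 for Sfta3-ps.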

How the results depend on the processing

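No paired analysis was possible because each group had 1 library, and for the same reason no replicate could be left out. In 1 alternative, called excluded genes kept, barcodes with a UMI of an excluded gene were let in, which gave 451 NTD and 105 control members. The excess of NTD over control in the share of all barcodes (1.393 points) became 0.7335 after thinning to 1500 UMIs, 0.5408 with at least 2 Gad and 2 Dlx UMIs, 1.801 with excluded genes kept and 1.0 in the leading cluster (added after seeing the data). The excess in the share of neuron barcodes (1.558 points) became 0.9895, 0.5689, 1.942 and 1.098 in the same order, and 1.031 with no Hox UMI. The count of genes at least 1.5-fold higher (640) became 289 after thinning, 348 with at least 2 UMIs of each, 1050 with excluded genes kept, 1040 with TMM, 1343 with at least 20 UMIs and 2473 with at least 1 UMI. The count lower (722) became 195, 300, 1418, 399, 1814 and 6755 in that order. The median of the lateral eminence and striatum list (-0.099) became 0.33 with at least 2 UMIs of each, -0.39 with excluded genes kept, 0.083 with TMM, -0.30 with at least 20 UMIs and -0.38 with at least 1 UMI. The genes 2-fold over other neurons in both libraries (142) became 62 after thinning, 88 with excluded genes kept, 229 with at least 20 UMIs and 2078 with at least 1 UMI (alternatives added after seeing the data). The other settings (doublets left out, a UMI floor, 1 count added) kept every count within 1.5 times.

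Of 972 alternative values for 102 named genes (none is given where fewer than 50 UMIs remained), 866 stayed within the first counting interval, 94 left it and 12 changed sign from past 1.5-fold. The settings of at least 20 UMIs and at least 1 UMI do not alter a gene's ratio. Their values, 102 in each, repeat the first ones and stayed by construction, so the 866 overstates how stable the ratios were. With excluded genes kept, the genes that changed sign were Cadm2 (-0.319), Sfta3-ps (0.193), Zic1 (0.021), Nkx2-1 (0.60), Lhx1 (-0.539), Sema3a (-0.518) and Rbfox1 (-0.371). With no Hox UMI they were Ebf2 (0.401) and Prrx1 (1.421), and with 2 UMIs of each Tafa2 (0.173). Without doublets Prrx1 changed sign (0.711), and in the leading cluster Smchd1 did (0.037). Of the 69 named genes past 1.5-fold, 46 fell under it or changed sign in at least 1 alternative. By setting, 34 did so with excluded genes kept, 13 with TMM, 12 with no Hox UMI and 9 with at least 2 UMIs of each. In the leading cluster 8 did, without doublets 7, with the UMI floor 6 and after thinning 4. The causes were not tested. The 63 control barcodes with 166540 UMIs limit every ratio.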
